A study of Mus musculus with 48 samples.

Results

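The metabotropic glutamate receptors described here are the 6 genes Grm2, Grm3, Grm4, Grm5, Grm7 and Grm8, chosen by name from the 57126 gene identifiers of a hippocampal RNA sequencing count table and all found in it. Its 48 libraries come from CD-1 mice, an outbred stock, aged 2 months, and form 8 groups of 6 animals. The dams drank plain water (controls), lead (Pb) at 100 ppm, manganese (Mn) at 2 g/L, or lead with manganese at those concentrations (Pb+Mn), starting 2 weeks ahead of mating and ending at weaning on postnatal day 21, 8 weeks in total, and sons and daughters of each kind of dam were sampled. The animals carry no transgene or allele in the labels, and the exposure had ended before sampling. The labels do not say which animals were littermates, so the tests treat animals, not litters, as replicates.

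Metabotropic glutamate receptors are G protein-coupled receptors that modulate synapses over a slower time course than the glutamate-gated ion channels. Group I, represented here by Grm5 (mGlu5), couples to Gq and phospholipase C and lies mainly at the edge of the postsynaptic density, where it takes part in long-term depression. Group II, Grm2 (mGlu2) and Grm3 (mGlu3), and group III, Grm4 (mGlu4), Grm7 (mGlu7) and Grm8 (mGlu8), couple to Gi/o and lower cyclic AMP. Most of these act on axon terminals as brakes on transmitter release, mGlu2 among other places on the mossy fibres of dentate granule cells, while mGlu3 is also made by astrocytes. Receptors of the family outside these 6 genes were not analysed here.

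The start regions of Grm2 and Grm3 are shown because this pair makes up group II and yet had unlike values from library to library, as given further on. Each is 1 RefSeq promoter window on build GRCm38.p6, from 250 bases before to 50 bases after the annotated start, written 5′ to 3′ on the gene's strand. Grm2 lies at chr9:106656060-106656359 and Grm3 at chr5:9725303-9725602, both on the minus strand. Capitals mark the GC box letters GGGCGG, searched on both strands together with CCGCCC.
Grm2: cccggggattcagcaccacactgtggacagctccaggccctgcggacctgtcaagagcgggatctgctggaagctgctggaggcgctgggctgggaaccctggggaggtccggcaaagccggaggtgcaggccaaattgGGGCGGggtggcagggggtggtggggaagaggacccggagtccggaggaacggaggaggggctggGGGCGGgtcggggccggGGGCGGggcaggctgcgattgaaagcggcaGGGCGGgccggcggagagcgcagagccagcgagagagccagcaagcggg
Grm3: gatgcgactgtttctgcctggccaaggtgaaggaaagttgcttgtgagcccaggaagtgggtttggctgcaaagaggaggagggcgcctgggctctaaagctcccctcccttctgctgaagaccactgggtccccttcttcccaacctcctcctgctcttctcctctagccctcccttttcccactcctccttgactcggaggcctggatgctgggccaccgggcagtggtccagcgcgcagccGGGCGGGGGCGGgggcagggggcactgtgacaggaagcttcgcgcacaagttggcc
The Grm2 window held 4 matches at 72% G and C, and the Grm3 window held 2 matches at 63.7% G and C. Among all 32851 RefSeq windows of the same length, 35.7% hold at least 1 match. A match is a description of the letters and not a measured binding site.

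All 6 genes passed the filter on low counts, on which 16360 genes were tested. The total per library ran from 6273586 counts (male control 6) to 27639841 counts (male control 5). The median count of a receptor gene was 3139 for Grm5, 1148 for Grm2, 710 for Grm3, 708 for Grm7, 293 for Grm4 and 54 for Grm8. Grm8 ranged from 11 to 103 counts, so its values carry the most counting error. Markers of dentate granule cells, of CA1 and of CA2 and CA3 pyramidal cells were present in every library, such as Prox1 (54 to 185 CPM, read counts scaled to a common library total), Fibcd1 (48 to 297 CPM) and Bok (61.4 to 198 CPM), with Lefty1 of the CA1 list reaching 0 in some libraries. Of thalamus and habenula, which border the hippocampus, 12 of 12 listed genes were also detected, and their summed level ran from 160 CPM in male Pb 6 to 1448 CPM in male control 5. The sample labels used here give no RNA integrity value, so a slope computed from expression served as a stand-in for RNA quality. This length trend is the slope of each library's expression, relative to the mean of all libraries, on log2 transcript length. Whether it also reflects cell composition was not tested. The length trend was lowest in male Pb 6 (-0.334), female Pb 2 (-0.295) and female control 1 (-0.250), followed by -0.138 in male Pb 4. The highest was 0.135 in female Mn 5.

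Levels between genes were compared as CPM per kilobase of exon (CPM/kb). Grm5 stood first with 19.3 ± 4.41 CPM/kb, followed by Grm2 with 16.5 ± 5.24 and Grm3 with 14.8 ± 2.19 CPM/kb (SD, n = 48 libraries). Grm7 had 7.82 ± 1.28, Grm4 3.29 ± 1.61 and Grm8 0.34 ± 0.0845 CPM/kb. The first 3 were not separated beyond their spread, since Grm5 exceeded Grm2 in 35 of 48 libraries and Grm2 exceeded Grm3 in 29 of 48. Grm3 exceeded Grm7 in 48 of 48 libraries (median ratio 1.79), Grm7 exceeded Grm4 in 47 of 48 (2.56) and Grm4 exceeded Grm8 in 48 of 48 (9.01). Of the level summed over the 6 genes per kilobase, Grm5 made up 31 ± 5.23%, Grm2 26.2 ± 6.37%, Grm3 24.2 ± 4.98% and Grm7 12.6 ± 1.27%. Grm4 made up 5.42 ± 2.83%, and its share ran from 1.56% to 13.2%.

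**Figure D1:**
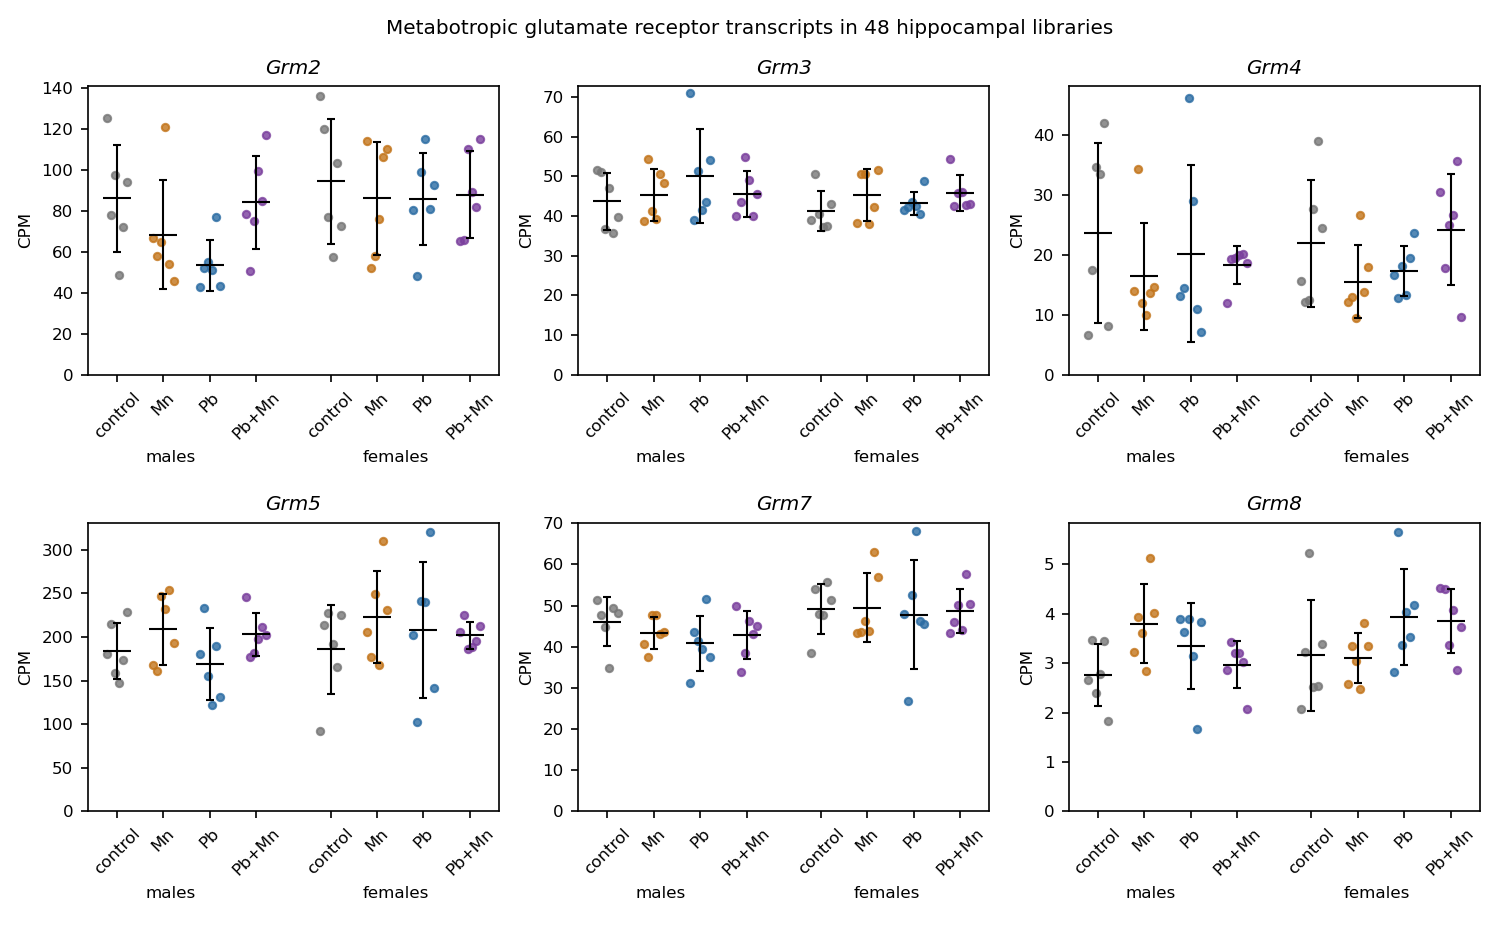
CPM of each receptor gene (vertical axes, linear from 0) in the 8 groups (horizontal axes). Points are animals and black marks show mean ± SD (n = 6). The groups overlap in every panel, and the male Pb animals lie between 42.6 and 76.7 CPM for Grm2.

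The spread between animals of a group differed widely among the 6 genes. On the log2 CPM scale the within-group SD was 0.71 for Grm4, larger than that of 93.2% of the genes tested, and 0.20 for Grm3, larger than that of 25.9%. Grm2 had 0.43, Grm5 0.36, Grm8 0.33 and Grm7 0.24, against a median of 0.28 over all genes. Grm4 ran from 6.58 CPM in male control 1 to 46.1 CPM in male Pb 3, a 7.01-fold range, while Grm3 ran 1.99-fold, from 35.7 to 71 CPM.

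To determine whether receptor transcripts differed with exposure or sex, 22 comparisons were made with edgeR's quasi-likelihood test over all genes. None of the 6 genes passed the adjusted threshold of 0.05 in any comparison, and the smallest adjusted p was 0.12. In 20 of the 22 comparisons no gene of the genome passed (0% called). The exceptions were the sex difference in controls, with 0.0428% called, and that averaged over the 4 exposures, with 0.0917% called. DESeq2, limma voom and limma voom with library weights also called 0 of the 6 in each comparison. At an unadjusted p under 0.05 there were 10 of 132 tests of a receptor gene, 6 for Grm2, 3 for Grm8 and 1 for Grm7. That is 7.58%, against 5.13% of the tests of all genes pooled over the 22 comparisons, which share animals. The ranges of the groups overlapped for 6 of 6 receptor genes in each exposure against control comparison within a sex and in Pb+Mn against Pb males. Overlap was not counted over all genes, so this describes the 6 genes and is not shown to be particular to them.

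Several comparisons held no receptor gene with an unadjusted p under 0.05. These included the female Pb by Mn interaction (3.17% of all genes under 0.05), Pb+Mn against Pb (3.71%) and against Mn (2.38%) in females, and any difference among the 4 female groups (1.8%). The interactions of sex with Mn (0.844%), Pb (1.89%) and Pb+Mn (0.568%), Pb+Mn against control averaged over the sexes (4.06%) and the sex difference in controls (1.08%) were likewise without a receptor gene.

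Among the group II receptors, Grm2 had its lowest values in males exposed to lead. In male controls Grm2 had a lowest value of 48.7, a median of 86.1 and a highest value of 125 CPM, and in male Pb 42.6, 51.5 and 76.7 CPM. All 6 Pb males were below the control mean, although the ranges overlapped. The means were 53.4 ± 12.5 against 86 ± 26.1 CPM (SD, n = 6 each), a log2 fold change of -0.69 ± 0.24 (SE) with a 95% interval of -1.17 to -0.21. This did not pass (edgeR, unadjusted p = 0.0061, adjusted p = 0.4), and 1 of 6 receptor genes against 11.5% of all genes had an unadjusted p under 0.05 there. Without 1 animal at a time the value ran from -0.81 to -0.56.

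With manganese added to lead, Grm2 in males was at 84.1 ± 22.6 CPM (50.5 lowest, 81.6 median, 117 highest, n = 6). Against Pb males the log2 fold change was 0.65 ± 0.24 (edgeR, unadjusted p = 0.0085, adjusted p = 0.12). In that comparison 1 of 6 receptor genes and 22.3% of all genes had an unadjusted p under 0.05. Without male Pb 5, which had the highest Grm2 of its group, the value was 0.77 and passed narrowly (adjusted p = 0.049). The share of all genes passing in that refit is not given here, so the call is not shown to be particular to Grm2. With all animals kept and the mean of the dentate granule markers as a covariate, Grm2 was at 0.12 ± 0.22 (unadjusted p = 0.58). Male Mn animals had 45.9, 61.3 and 121 CPM as lowest, median and highest value, with a log2 fold change of -0.33 ± 0.24 against control (unadjusted p = 0.17). The Pb by Mn interaction of Grm2 in males was 0.99 ± 0.34 (unadjusted p = 0.0052, adjusted p = 0.37), with 2 of 6 receptor genes and 13.1% of all genes under 0.05. A test of any difference among the 4 male groups gave an unadjusted p of 0.023 for Grm2 (adjusted p = 0.45), where 1 of 6 receptor genes and 10.1% of all genes were under 0.05.

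In females the Grm2 means lay close together, at 94.3 ± 30.5 CPM in controls, 86 ± 27.5 in Mn, 85.8 ± 22.5 in Pb and 87.8 ± 21.3 in Pb+Mn (SD, n = 6 each). The log2 fold change of Pb against control was -0.13 ± 0.24 in females, and the sex by Pb interaction was 0.55 ± 0.34 (unadjusted p = 0.11, adjusted p = 1). The Grm2 value, which passed in neither sex, was thus not shown to differ between the sexes. No receptor gene had an unadjusted p under 0.05 in Mn, Pb or Pb+Mn against control in females, where 2.59%, 2.25% and 1.46% of all genes did. Averaged over the sexes, Pb against control gave -0.41 ± 0.17 for Grm2 (unadjusted p = 0.018, adjusted p = 0.37). There 2 of 6 receptor genes and 11.1% of all genes were under 0.05, and without male Pb 6 and female Pb 2 Grm2 was at -0.32. These comparisons share control animals with each other.

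Markers of dentate granule cells lay on the same side as Grm2. In male Pb against control 9 of 10 markers were lower, with a median log2 fold change of -0.33, while the median over all genes was 0.01. The summed level of the list was 385 to 801 CPM in male controls and 377 to 608 CPM in male Pb, with no marker at 0. In Pb+Mn against Pb males 9 of 10 dentate markers were higher (median 0.45). So were 9 of 10 meninges genes (median 0.61), while 12 of 12 cytosolic ribosomal protein genes were lower (median -0.63). In the same male Pb against control comparison 12 of 12 cytosolic ribosomal protein genes were higher (median 0.69), with a summed level of 1907 to 6303 CPM in Pb males and 1660 to 2671 CPM in controls. Other lists shifted there too, so the dentate list did not stand alone. Lower were 12 of 12 thalamus and habenula genes (median -0.49) and 8 of 10 meninges genes (-0.58). Higher were 10 of 10 choroid plexus genes (0.64) and 5 of 5 blood genes (1.36). The length trend was 0.002 ± 0.067 for the 6 control males and -0.088 ± 0.135 for the 6 Pb males (SD). None of these list genes passed the adjusted threshold. With the mean of the dentate list as a covariate, added after seeing the data, Grm2 was at -0.24 ± 0.21 in Pb males, at 0.23 ± 0.30 in the interaction and at -0.09 ± 0.15 for Pb averaged over the sexes (unadjusted p = 0.26, 0.45 and 0.57). With the length trend as covariate the value in Pb males was -0.62, and without male Pb 6 and female Pb 2 it was also -0.62. Lower granule cell RNA in Pb males is thus not shown. In bulk tissue, fewer granule cells, a smaller share of dentate gyrus in the piece, less RNA per granule cell and library quality cannot be told apart.

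Grm3 was the steadiest of the 6. Group means ran from 41.3 ± 5.02 CPM in female controls to 50.1 ± 11.8 CPM in male Pb (SD, n = 6 each). The 6 log2 fold changes against control lay between 0.06 and 0.20, each with an SE of 0.12, and their 95% intervals reached at most from -0.18 to 0.43. The smallest p was that of male Pb (0.20 ± 0.12, unadjusted p = 0.1, adjusted p = 0.5). Male Pb 1 held 71 CPM, the highest of all libraries, and without it the value was 0.08.

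**Figure D2:**
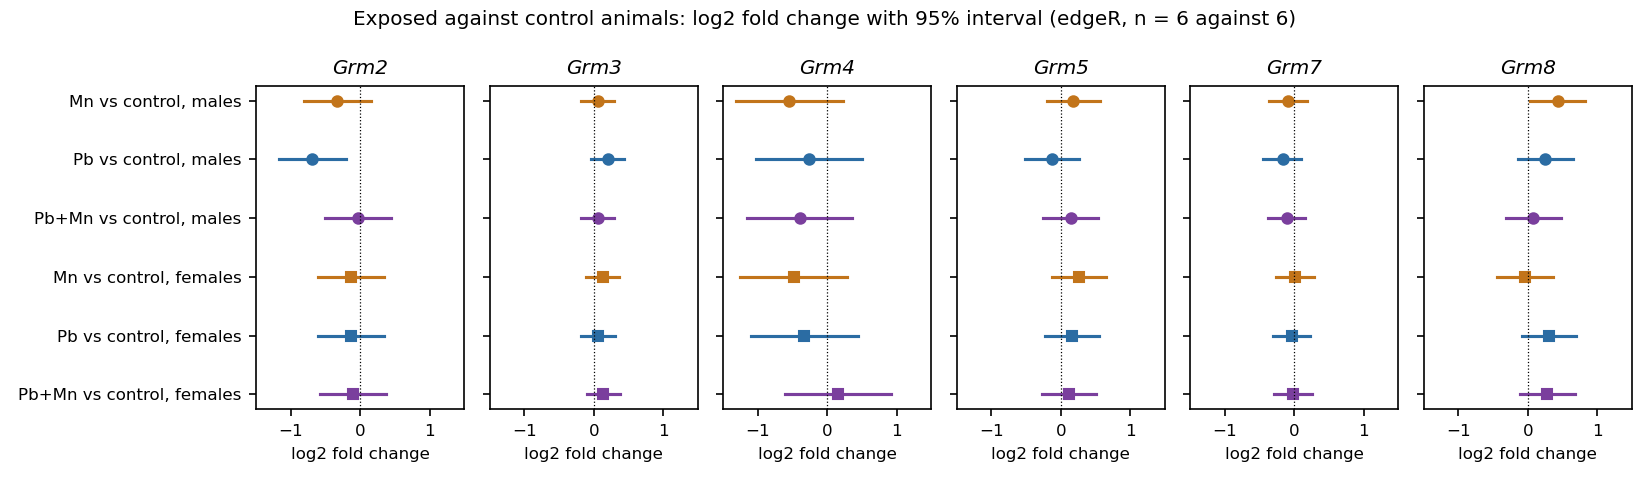
Log2 fold change of each receptor gene (horizontal axes) for exposed against control animals of 1 sex (rows), from edgeR with 6 against 6 animals. Points are estimates and bars 95% intervals. The bars of Grm2 in male Pb (-1.17 to -0.21) and Grm8 in male Mn leave out 0 before adjustment, and Grm4 has the widest bars.

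Of the group III receptors, Grm8, the rarest, had its highest mean among the 4 male groups in Mn males, while female Pb (3.93 ± 0.972 CPM) and female Pb+Mn (3.85 ± 0.652 CPM) had the highest means of the 8 groups. Grm8 in male controls had a lowest value of 1.82, a median of 2.73 and a highest value of 3.46 CPM, and in male Mn 2.84, 3.77 and 5.14 CPM. All 6 Mn males were above the control mean of 2.76 ± 0.63 CPM, and their own mean was 3.8 ± 0.795 CPM. The log2 fold change was 0.43 ± 0.20 and did not pass (edgeR, unadjusted p = 0.034, adjusted p = 1), with 1 of 6 receptor genes and 1.92% of all genes under 0.05. Without 1 animal at a time it ran from 0.33, without male Mn 5, to 0.51, and the highest unadjusted p was 0.11. In the same comparison 12 of 12 thalamus and habenula markers were lower (median -0.75), 8 of 8 CA1 markers higher (median 0.44) and 4 of 8 cortex and subiculum markers higher (median 0.05). With the thalamus and habenula list as a covariate Grm8 was at 0.43 ± 0.20, and with the dentate list, of which 8 of 10 markers were lower (median -0.20), at 0.35 ± 0.19 (unadjusted p = 0.041 and 0.077), while the part of the CA1 markers was not tested. In Mn females the Grm8 value was -0.04 ± 0.20, and the sex by Mn interaction was -0.47 ± 0.28 (unadjusted p = 0.1, adjusted p = 1).

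In males whose dams received both metals Grm8 averaged 2.97 ± 0.478 CPM (log2 fold change 0.08 ± 0.20 against control). The Pb by Mn interaction in males was -0.61 ± 0.28 (unadjusted p = 0.034, adjusted p = 0.37), and -0.31 ± 0.30 with the dentate list as a covariate (unadjusted p = 0.31). No receptor gene had an unadjusted p under 0.05 in Pb+Mn against control in males, where 2.24% of all genes did, nor in Pb+Mn against Mn in males (3.81%). Lead against control averaged over the sexes gave 0.28 ± 0.14 for Grm8 (unadjusted p = 0.05 after rounding, adjusted p = 0.45), and without female Pb 2, which had the highest Grm8 of all libraries at 5.65 CPM, 0.22. With the dentate list as a covariate it was 0.14 ± 0.15 (unadjusted p = 0.34).

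Grm7, the low-affinity receptor of the presynaptic active zone, varied little with exposure. Its 6 log2 fold changes against control lay between -0.17 and 0.01 with an SE of 0.13, and the 95% intervals stayed within -0.45 and 0.28. Grm7 was higher in females than in males before adjustment, at 48.8 ± 8.3 against 43.2 ± 5.64 CPM (SD, n = 24 each). The female minus male log2 difference averaged over the 4 exposures was 0.17 ± 0.07 (edgeR, unadjusted p = 0.012, adjusted p = 0.72). The ranges overlapped, with 26.7 to 68.1 CPM in females and 31.3 to 51.6 CPM in males. Grm2 lay on the same side, at 88.4 ± 24.2 CPM in females and 72.9 ± 25.1 CPM in males (0.30 ± 0.12, unadjusted p = 0.014, adjusted p = 0.72). In this comparison 2 of 6 receptor genes and 6.77% of all genes were under 0.05, 8 of 10 dentate markers were higher in females (median 0.10) and 12 of 12 ribosomal protein genes lower (median -0.12). With the dentate list as a covariate the difference was 0.11 ± 0.06 for Grm7 and 0.16 ± 0.10 for Grm2 (unadjusted p = 0.072 and 0.1). Between control animals alone, the female minus male difference was 0.09 ± 0.13 for Grm7 and 0.13 ± 0.24 for Grm2.

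Grm4 had the largest uncertainty, with an SE of 0.38 in each exposure comparison and 95% intervals reaching from -1.32 to 0.92. Male controls had 6.58, 25.4 and 41.9 CPM as lowest, median and highest value, and male Pb+Mn animals 12, 19.3 and 20.1 CPM. Female controls had 12.1, 20.1 and 39 CPM, and female Mn animals 9.55, 13.3 and 26.6 CPM. The smallest p was that of Mn against control averaged over the sexes, at -0.52 ± 0.27 (edgeR, unadjusted p = 0.062, adjusted p = 1). There 0 of 6 receptor genes and 4.3% of all genes were under 0.05.

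Grm4 followed the markers of thalamus and habenula from library to library. Over 48 libraries its log2 CPM had Pearson's r = 0.92 and Spearman's rho = 0.91 with the mean log2 CPM of that list (permutation p = 1e-05 each, the smallest that 100000 permutations can give, two-sided, adjusted p = 0.00016 each over 96 correlations). Without the 2 libraries farthest from the median list value r was 0.91, and with group means removed it was 0.93. In Mn against control averaged over the sexes 12 of 12 listed genes were lower (median -0.92). None was at 0 in all 6 animals of a group, although the lowest value of Gbx2 was 0 CPM (mean 1.12 CPM). The summed level of the list was 220 to 1448 CPM in male controls and 347 to 506 CPM in male Pb+Mn, the group in which Grm4 varied least. With the list mean as a covariate, added after seeing the data, Grm4 in that comparison was at -0.00 ± 0.12, and in the 6 comparisons within a sex it lay between -0.11 and 0.19. With the dentate list as a covariate instead, Grm4 in Mn against control averaged over the sexes was at -0.58 ± 0.26 (edgeR, unadjusted p = 0.031, adjusted p = 0.8). Markers of meninges also went with Grm4 (r = 0.69, rho = 0.72, permutation p = 1e-05 each, adjusted p = 0.00016).

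**Figure D3:**
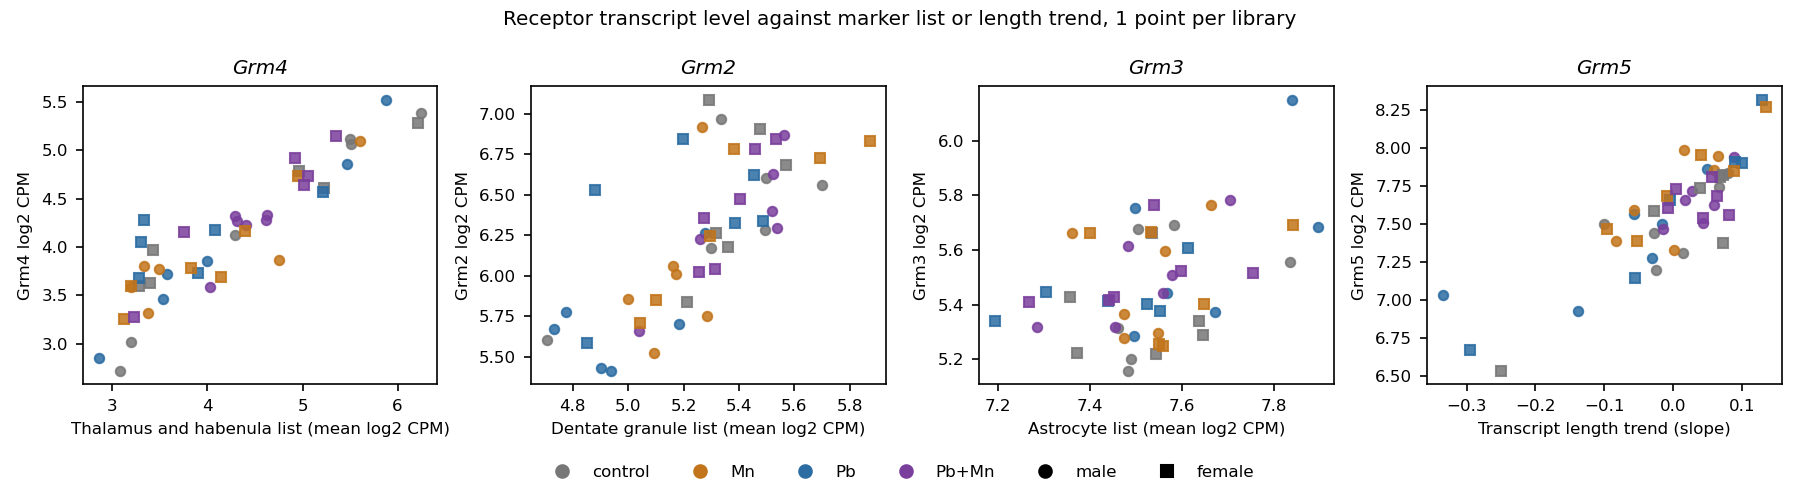
Log2 CPM of a receptor gene (vertical axes) against the mean log2 CPM of a marker list, or for Grm5 against the transcript length trend (horizontal axes), 1 point per library (circles male, squares female, colours by exposure). Grm4 goes with the thalamus and habenula list (r = 0.92), Grm2 with the dentate granule list (r = 0.72) and Grm5 with the length trend (r = 0.84), while Grm3 is spread widely (r = 0.42).

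The other receptor genes had their own relations to these lists. Of the 16 measures, namely 15 marker or quality lists and the length trend, the one of highest r was the dentate granule list for Grm2 (r = 0.72, rho = 0.72, permutation p = 1e-05 each, adjusted p = 0.00016, 0.70 without the 2 farthest libraries and 0.64 within groups). For Grm3 it was the endothelial list (r = 0.47, rho = 0.46, permutation p = 0.0008, adjusted p = 0.0042), followed by the astrocyte list (r = 0.42, rho = 0.35, permutation p = 0.0027, adjusted p = 0.013). Grm3 and Grm2 were unlike in this, since Grm3 had r = -0.37 with the dentate list (rho = -0.32, permutation p = 0.009, adjusted p = 0.03), and that rho did not pass (adjusted p = 0.076). Grm8 had its highest r with the list for cortex and subiculum (r = 0.49, rho = 0.49, permutation p = 0.00045, adjusted p = 0.0027, 0.56 without the 2 farthest). The points share their library, so depth, tissue borders and RNA quality can enter both sides of each relation.

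Grm5 and Grm7 went with the length trend and the ribosomal protein list, and also with cell type lists. Grm2 was related to these 2 measures as well, less closely. It had r = -0.46 with the ribosomal protein list (rho = -0.35, permutation p = 0.00042, adjusted p = 0.0027). With the length trend Grm2 had r = 0.35 (rho = 0.38, permutation p = 0.014, adjusted p = 0.042, 0.17 without the 2 farthest libraries). Of the 16 measures, 8 for Grm5 and 7 for Grm7 had an adjusted permutation p under 0.05. With the dentate list r was 0.55 for Grm5 and 0.57 for Grm7 (adjusted permutation p = 0.00048 and 0.00041). With the oligodendrocyte list r was -0.58 and -0.50 (adjusted permutation p = 0.00048 and 0.0027). Grm5, whose exons span 10.2 kb, had r = 0.84 and rho = 0.77 with the length trend (permutation p = 1e-05 each, adjusted p = 0.00016, 0.82 without the 2 farthest and 0.85 within groups), and it is itself 1 of the genes from which the slope was computed. Its lowest value, 92.7 CPM, was in female control 1, and its highest, 320 CPM, in female Pb 5 with a length trend of 0.130. Group means of Grm5 ran from 169 ± 41.4 CPM in male Pb to 223 ± 52.3 CPM in female Mn (SD, n = 6 each). Its log2 fold changes against control lay between -0.12 and 0.26 with an SE of 0.19, and the smallest p was that of Mn averaged over the sexes (0.22 ± 0.14, unadjusted p = 0.11, adjusted p = 1). With the dentate list as a covariate that value was 0.29 ± 0.11 (edgeR, unadjusted p = 0.016, adjusted p = 0.77). Grm7 had r = 0.59 with the length trend (rho = 0.54, permutation p = 5e-05, adjusted p = 0.00048, 0.46 without the 2 farthest) and r = -0.74 with the ribosomal protein list (rho = -0.68, permutation p = 1e-05, adjusted p = 0.00016). The part of RNA quality in the group values of Grm5 and Grm7 was not tested beyond the fit with the length trend as covariate. In that fit the female minus male difference of Grm7 was 0.13.

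**Figure D4:**
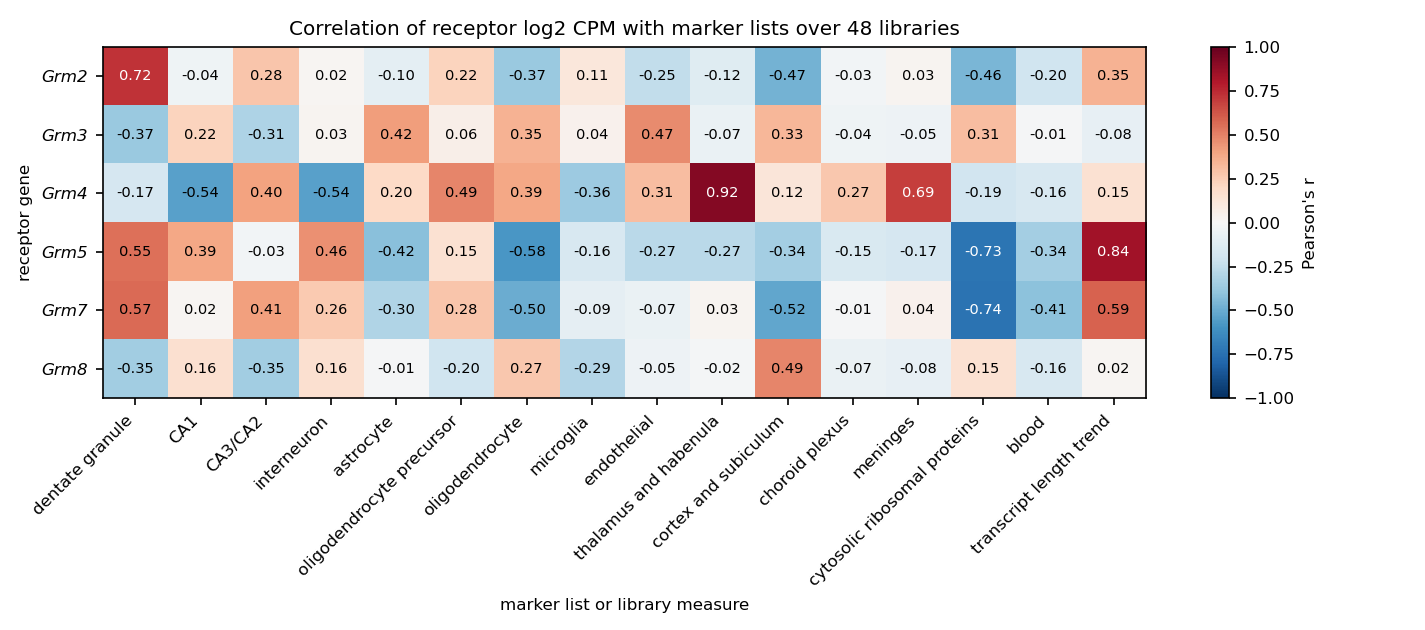
Pearson's r over 48 libraries between log2 CPM of each receptor gene (rows) and the mean log2 CPM of each marker list, or the length trend (columns). Red is positive and blue negative. The highest values are 0.92 for Grm4 with thalamus and habenula and 0.84 for Grm5 with the length trend.

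Among themselves the 6 genes did not vary as a block. Over 48 libraries Grm7 had r = 0.63 with Grm2 and 0.61 with Grm5, while Grm2 and Grm5 had 0.22. The group II pair Grm2 and Grm3 had r = -0.30, and Grm2 and Grm8 had r = -0.40. In group III, Grm7 and Grm8 had -0.21, Grm4 and Grm7 -0.04, and Grm4 and Grm8 0.03. These values are descriptions, with shared libraries behind both genes of each pair.

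The genes most alike to each receptor over the 48 libraries were taken by Pearson's r of log2 CPM among all genes tested. For Grm4 they were the nicotinic receptor subunit gene Chrna4 (r = 0.96), the vesicular glutamate transporter gene Slc17a6 (0.93) and Plekhg1 (0.92), of which the last 2 belong to the thalamus and habenula list. For Grm5 they were Nexmif (0.97), the kinase gene Pak3 (0.95) and the anchoring protein gene Akap11 (0.94), with exons of 11.5, 9.55 and 11 kb. Grm2 was closest to Plekha2 (0.89), C1ql2 (0.89), a secreted synaptic protein gene on the dentate list, and Spsb1 (0.87). Grm7 was closest to the potassium channel subunit gene Kcns2 (0.84), Lrp11 (0.83) and Lgi1 (0.83), which codes for a secreted synaptic protein. Grm3 had Fermt2 (0.74), the myosin gene Myo6 (0.69) and Wwtr1 (0.68), and Grm8 had the cyclin gene Ccnl1 (0.68), the neurexophilin gene Nxph3 (0.66) and the relaxin receptor gene Rxfp1 (0.64).

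The other genes of the pathway were followed in 4 lists of 20, 21, 12 and 14 genes, and none of these genes passed the adjusted threshold in any comparison. The Gq arm of group I (20 genes for Gq subunits, phospholipase C and postsynaptic scaffolds) held Homer2, a scaffold that binds mGlu5, at 0.39 ± 0.15 (unadjusted p = 0.013) and the scaffold gene Shank2 at 0.26 ± 0.10 (0.018), both in Mn females (edgeR, adjusted p = 1 each). Of that list 4 had an unadjusted p under 0.05 with positive values and 0 with negative values there, where 2.59% of all genes were under 0.05, with a list median of 0.06 against -0.00 over all genes. The Gi arm (21 genes for Gi/o subunits, adenylyl cyclases, potassium channels and regulators) held the cyclase gene Adcy5 at 0.32 ± 0.10 (unadjusted p = 0.0023) and Rgs7, a regulator of G protein signalling, at -0.18 ± 0.09 (0.042) in Pb males (adjusted p = 0.4 and 0.42). There 1 gene of the list was under 0.05 with a positive and 3 with a negative value, against 11.5% of all genes in either direction, and the list median was -0.04.

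Among 12 partner genes, the receptor kinase genes Grk2 (0.24 ± 0.10, unadjusted p = 0.017) and Grk3 (0.30 ± 0.12, unadjusted p = 0.018), whose products desensitise G protein-coupled receptors, had the smallest p, again in Pb males (edgeR, adjusted p = 0.4 each). In Pb males 3 of the 12 were under 0.05 with positive values and 0 with negative values, against 11.5% of all genes in either direction. The list median there was -0.01. Among 14 genes of ligand supply, Rimklb, which codes for a synthase of N-acetylaspartylglutamate, an mGlu3 agonist, had 0.19 ± 0.09 in Pb males (unadjusted p = 0.053, adjusted p = 0.43). Glul, the astrocytic glutamine synthetase gene, had -0.25 ± 0.14 in Pb+Mn females (unadjusted p = 0.072, adjusted p = 1). In none of the 6 exposure comparisons did a ligand supply gene reach an unadjusted p under 0.05, where 1.46% to 11.5% of all genes did.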

How the data were processed

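Hippocampal RNA of 48 CD-1 mice was sequenced as paired reads from stranded poly(A) libraries, per the labels' protocols. The authors deposited raw read counts, whole numbers for each gene. Per the submitters' processing notes, the build was GRCm39 and the named tools were featureCounts 2.0.6 and STAR 2.7.10b, along with Trim Galore 0.6.9, limma, edgeR and R 4.4.2, while the counting options are not given in the sources used here. Symbols came from the reference names (51884 of 57126 identifiers, 99.52% of counts), and exon lengths from GENCODE M21 on another build, so no gene coordinates of it are printed. The promoter windows are RefSeq's, on GRCm38.p6, with an entry for 4 of the 6 genes.

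The main test was edgeR 4.0.16 in R 4.3.3 (quasi-likelihood F test, two-sided, TMM, filterByExpr, 1 fit with a term per group, Benjamini-Hochberg over 16360 genes, threshold 0.05), run on all 48 libraries. It was also run on simulated counts, for Mn against control in males only. Those counts held no differences in tissue share or length trend and no litters, so that run does not cover such sources of spread. CPM uses TMM-scaled totals, log2 CPM a prior count of 2, and an SE is the log2 fold change over the root of F. The length trend used protein-coding genes whose log2 CPM averaged 2 or more. DESeq2 1.42.0, limma 3.58.1 and the other settings were alternatives.

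The receptor genes and lists were chosen with earlier results of these data known. Folds are printed for each receptor gene where its unadjusted p was under 0.05, and otherwise for its smallest p (some others are given for context, chosen after their values were seen). Of each pathway list the 2 genes of smallest p over the 6 exposure against control comparisons are named, and the 3 genes of highest r for each receptor gene, leaving out gene models and pseudogenes. Animals share numbers 1 to 6 across groups with no stated pairing. No library was a repeat of another (chi-square per degree of freedom at least 8.9 within groups).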

Additional observations from a re-analysis of the deposited data

Results flagged for a closer look

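In 6 of 48 groups of 6 animals (6 receptor genes in 8 groups) 1 animal stood far from the other 5, with a gap to its neighbour that exceeded Dixon's critical share of the group's range. Chance gives about 1 in 20 such groups if values are independent and normally spread. The check was made on linear CPM of these 6 genes only, and the genes share libraries (male Pb 5 appears for Grm2 and for Grm8). No share over all genes was computed, so the count is not shown to be particular to the receptor genes. Grm2 was at 121 CPM in male Mn 4 (gap 0.72 of the range) and at 76.7 CPM in male Pb 5 (0.64). Grm3 was at 54.4 CPM in female Pb+Mn 1 (0.71). Grm4 was at 34.3 CPM in male Mn 2 (0.81), the male Mn library of highest thalamus and habenula sum (880 CPM), and at 12 CPM in male Pb+Mn 1 (0.82), the library of lowest such sum in its group (347 CPM). Grm8 was at 1.66 CPM in male Pb 5 (0.67).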

How the results depend on the processing

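In each of the 22 comparisons 0 of the 6 receptor genes passed, with the test as reported and under 12 other settings (where they could be fitted), among them a threshold of 0.10. Leaving out 1 library at a time gave 0 to 1 in Pb+Mn against Pb males (1, Grm2, without male Pb 5) and 0 in every other comparison. The share of all genes passing without male Pb 5 is not given here. Each of the 12 folds examined kept its sign. The dentate list as a covariate moved the Grm2, Grm7 and Grm8 values as given beside them. In Mn over the sexes it moved Grm5 from 0.22 to 0.29 and Grm4 from -0.52 to -0.58, away from 0. The thalamus and habenula list moved Grm4 in Mn over the sexes from -0.52 to -0.00. The fit on the compared groups alone is the reported fit for the sex difference over 4 exposures, which uses all groups. Same-numbered animals were not treated as pairs, since their correlations (-0.34 to 0.38) were not all above 0.1 in any comparison, although 16 of 48 libraries were closest to their own number where even chance gives 8. With the number as a replicate block 0 receptor genes passed. Group means on DESeq2 size factors stayed within 1 SD for 48 of 48 values. Depth limits Grm8 most, with as few as 11 counts. A difference that misses the threshold is not shown to be absent: the intervals above give the sizes that remain possible.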
